A study of Mus musculus with 6 samples.

Results

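Tubulin genes encode the alpha and beta subunits of microtubules. The group described here holds 10 alpha and beta tubulin genes (Tuba1a, Tuba1b, Tuba1c, Tuba4a, Tuba8, Tubb2a, Tubb2b, Tubb4b, Tubb5 and Tubb6), measured in liver among 34472 probe sets, of which 23521 carry 1 gene symbol and name 22180 genes. Each gene was read from the probe set with its symbol alone that had the highest mean log2 signal over the 6 arrays. This gave 9 of the 10 genes. Tuba4a is listed only together with Stk16, a kinase gene, on a shared probe set, and is left out of every count. The group does not hold every tubulin: Tubal3, Tubb1, Tubb3 and Tubb4a were also measured, none of them passed, and they are described further on.

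The livers came from male mice of the C57Bl/6J background, aged 12 weeks, and all carried the same Fah point mutation at the end of an exon (strain FAH5981SB), a model of hereditary tyrosinemia. Fah encodes fumarylacetoacetate hydrolase, the last enzyme of tyrosine breakdown, and nitisinone (NTBC) blocks an earlier step. The continuous group (3 arrays) drank water holding 8 mg/l NTBC, sweetened with 3% dextrose, up to tissue collection. The withdrawal group (3 arrays) had the same water until the age of 11 weeks and then no NTBC for 7 days. Both groups ate chow low in tyrosine and phenylalanine. There was no wild-type group, so both sides of the comparison are Fah-deficient. The labels call the replicates biological without tying them to named animals, and if they were not separate animals the p-values would describe technical spread only. The question was which tubulin transcripts change when NTBC is stopped for a short time.

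Microtubules are hollow polymers of alpha and beta tubulin dimers. In hepatocytes they carry secretory vesicles and lipoproteins to the cell surface, position organelles and take part in delivery to the bile canaliculus. Mammals hold several alpha and several beta genes whose proteins are nearly alike and differ mostly in their C-terminal tails. Cells also adjust tubulin mRNA to the pool of unpolymerised tubulin: when free dimer rises, the factor TTC5 recognises nascent tubulin at the ribosome and the mRNA is degraded.

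Promoter sequences were available for 8 of the 10 genes, from RefSeq (GRCm38.p6), and 4 are shown because they belong to the genes the results turn on: Tuba1c, Tubb2a and Tubb4b, which had the largest called rises and whose calls held in every alternative that tested them, and Tuba1a, a close relative of Tuba1c that did not pass. Each runs 5′ to 3′ on the strand of the gene and covers the 250 bases before the annotated transcription start. Capitals mark matches on either strand to the CCAAT box (CCAAT), the GC box (GGGCGG), the TATA motif (TATAAA) or the core of the antioxidant response element bound by NRF2 (TGACNNNGC).
Tuba1c, chr15:99029641-99029890, plus strand: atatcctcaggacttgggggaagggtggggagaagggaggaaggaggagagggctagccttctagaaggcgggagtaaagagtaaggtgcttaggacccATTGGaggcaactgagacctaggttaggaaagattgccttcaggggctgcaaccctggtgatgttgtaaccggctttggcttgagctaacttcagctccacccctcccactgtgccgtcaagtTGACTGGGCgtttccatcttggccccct
Tubb2a, chr13:34078009-34078258, minus strand: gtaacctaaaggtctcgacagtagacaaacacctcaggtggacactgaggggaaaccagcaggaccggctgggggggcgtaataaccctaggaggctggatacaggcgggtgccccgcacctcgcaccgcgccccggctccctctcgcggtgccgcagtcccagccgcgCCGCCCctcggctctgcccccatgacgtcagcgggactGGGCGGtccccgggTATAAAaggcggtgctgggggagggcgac
Tubb4b, chr2:25224703-25224952, minus strand: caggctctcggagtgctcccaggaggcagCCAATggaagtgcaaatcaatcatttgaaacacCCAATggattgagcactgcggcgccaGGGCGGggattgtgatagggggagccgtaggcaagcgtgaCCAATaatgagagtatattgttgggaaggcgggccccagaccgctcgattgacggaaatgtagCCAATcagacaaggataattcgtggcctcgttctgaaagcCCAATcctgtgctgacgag
Tuba1a, chr15:98953502-98953751, minus strand: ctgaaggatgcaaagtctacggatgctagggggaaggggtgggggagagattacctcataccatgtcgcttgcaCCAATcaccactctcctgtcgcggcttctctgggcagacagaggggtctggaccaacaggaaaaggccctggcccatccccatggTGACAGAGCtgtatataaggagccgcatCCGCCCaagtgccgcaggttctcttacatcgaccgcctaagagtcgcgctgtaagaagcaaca

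The Tubb4b promoter held 5 CCAAT matches, starting 221, 188, 122, 59 and 19 bases before the transcription start. Of 32851 promoters, over windows of the same length, 0.213% hold at least 5. That level is the Tubb4b count itself, the highest of the 8 tubulin promoters. At least 1 CCAAT match was present in 4 of the 8 tubulin promoters and in 33.8% of all. Of the 8 promoters Tubb2a alone had a TATAAA match, 29 bases before the start, beside 2 GC boxes, and TATAAA occurs in 12.4% of all promoters. The GC box was found in 5 of the 8 and in 32.7% of all. The share of G and C in the 8 windows ran from 49.2% (Tubb5) to 75.6% (Tuba1b), beside a median of 52.4% over all promoters. The part of base composition in the GC box count was not tested. The antioxidant response element core occurred in Tuba1c, 28 bases before the start, and in Tuba1a, 91 bases before it, and in 10.2% of all promoters. A match describes letters in this window and not binding.

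After NTBC withdrawal, most measured genes of this group were higher. The members were chosen with earlier results of these data known, so the counts describe the group and do not test it. Of 9 measured members, 6 passed limma's Benjamini-Hochberg adjusted p of 0.05 upward and 0 downward, against 6.21% of all probe sets called higher and 3.20% called lower. Unadjusted p was under 0.05 for 7 members upward and 0 downward, against 4267 and 3851 of the 34472 probe sets. The median change of the 9 was 0.97 on the log2 scale, and that of all probe sets was -0.08. The 3 withdrawal arrays lay wholly above the 3 continuous arrays for 7 members, against 13.9% of all probe sets. A rise of at least 2-fold was met by 4 called members, against 2.17% of probe sets. Of all probe sets 2139 were called higher and 1102 lower, 66.0% of them higher. With each array centred on its median the split was 2393 higher and 708 lower (77.2% higher), the median change of all probe sets moved from -0.08 to 0.02, and 7 tubulin members were called higher. In whole liver, more cells of a type and more RNA per cell cannot be told apart.

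**Figure D1:**
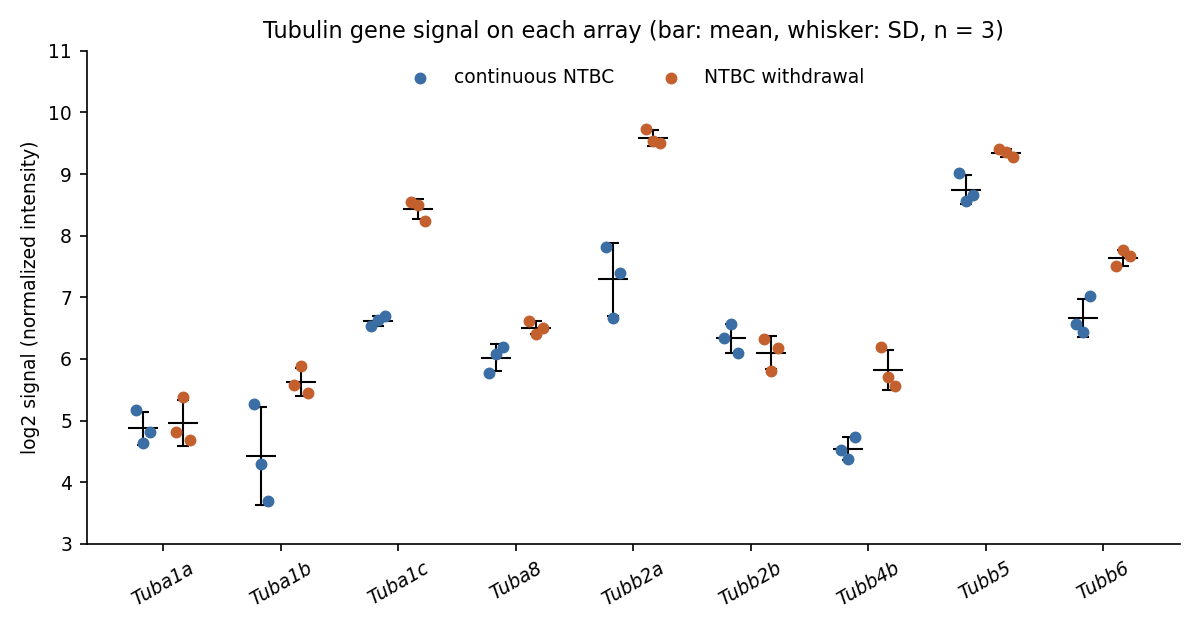
Log2 signal (y axis) of the 9 measured tubulin genes (x axis) on each of 3 continuous NTBC arrays (blue) and 3 withdrawal arrays (orange), with the group mean as a bar and the SD as a whisker. Tubb2a rises from between 6.66 and 7.82 to between 9.5 and 9.73, while the groups of Tuba1a and Tubb2b overlap.

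Among the alpha tubulins, Tuba1c, a broadly expressed isotype, rose most. With NTBC its log2 signal was 6.53, 6.63 and 6.69 (replicates 1 to 3, the order used throughout), and after withdrawal it was 8.54, 8.5 and 8.24. The groups were separated by 1.55, more than the spread within either one. The means were 6.62 ± 0.08 and 8.43 ± 0.16 (SD, n = 3), a 3.51-fold difference (log2 change 1.81, SE 0.15, limma adjusted p = 7.19e-05), which ranked 157 of 34472 among rises. A second Tuba1c probe set also rose, from 6.18 ± 0.28 to 7.78 ± 0.14 (3.04-fold, limma adjusted p = 0.000402). Both probe sets of this gene thus gave a rise of similar size, and the call held under every alternative tried.

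Tuba1b, a widely expressed alpha tubulin, was higher with a wide spread in the continuous group. The continuous arrays gave 5.27, 4.30 and 3.69 and the withdrawal arrays 5.57, 5.88 and 5.44. The lowest continuous value was below the lower quartile of its array (4.26), and the gap between the groups was only 0.17. The log2 change was 1.21 (SE 0.33, 95% interval 0.48 to 1.94, limma adjusted p = 0.0458). Leaving out 1 array ended this call in 5 of 6 cases: adjusted p was 0.143 and 0.109 with continuous replicate 2 or 3 left out, and 0.117, 0.160 and 0.0775 with withdrawal replicate 1, 2 or 3 left out. Quantile normalization (0.0728) and raising signals under an array's lower quartile to that quartile (0.0573) ended it too. A further probe set, annotated to Tuba1b and the predicted gene Gm5620 together, went from 4.88 ± 0.53 to 5.85 ± 0.50, with overlapping groups (limma adjusted p = 0.0719).

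Tuba1a, the alpha tubulin best known from developing neurons, did not pass. Its continuous signals were 5.17, 4.64 and 4.81 and its withdrawal signals 4.82, 5.39 and 4.68, so the groups overlapped. The log2 change was 0.09 (95% interval -0.39 to 0.57, limma adjusted p = 0.837), and that of its second, dimmer probe set was 0.40 (interval -0.04 to 0.85, adjusted p = 0.261). Its sign turned to -0.03 without continuous replicate 2 and to -0.12 without withdrawal replicate 2.

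Tuba8, a divergent alpha tubulin known from muscle, heart and testis, had withdrawal signals of 6.61, 6.40 and 6.50, all above the continuous signals of 5.78, 6.08 and 6.20. Its log2 change of 0.48 (SE 0.16, 95% interval 0.13 to 0.84) did not pass (limma adjusted p = 0.0935). It passed narrowly with median centring (adjusted p = 0.0454), array weights (0.0462) and without dim probe sets (0.0466). Its second probe set had a change of 0.12 with overlapping groups (adjusted p = 0.710). The probe set that lists Tuba4a and Stk16 together gave 9.85, 9.68 and 10.14 on continuous arrays and 10.87, 10.81 and 10.89 on withdrawal arrays (log2 change 0.97, SE 0.16, limma adjusted p = 0.00417). The rise on that probe set cannot be assigned to either gene.

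Of the 5 beta tubulins in the group, 4 rose. Tubb2a, a class II beta tubulin abundant in brain, had the largest change of the family. The log2 signals were 7.82, 6.66 and 7.39 on continuous arrays and 9.73, 9.53 and 9.5 on withdrawal arrays. The lowest withdrawal array stood 1.68 above the highest continuous array, and the continuous group was the more scattered. The means were 7.29 ± 0.59 and 9.59 ± 0.13 (SD, n = 3), a 4.91-fold difference (log2 change 2.30, SE 0.26, limma adjusted p = 0.000423) that ranked 78 of 34472 among rises. The change lay between 1.98 and 2.56 over 15 alternatives and passed in each.

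Tubb2b, the class II partner whose protein is almost that of Tubb2a, gave different results on its 2 probe sets. On the brighter one, used for the counts, the signals were 6.34, 6.57 and 6.09 with NTBC and 6.32, 5.81 and 6.18 after withdrawal (log2 change -0.23, 95% interval -0.64 to 0.18, limma adjusted p = 0.497). On the other they were 5.01, 5.69 and 4.56 with NTBC and 6.57, 6.77 and 6.28 after withdrawal, a 2.74-fold difference with separated groups (log2 change 1.45, SE 0.26, limma adjusted p = 0.00667). With the mean of both probe sets the change was 0.61 (adjusted p = 0.0937). The probe sequences were not used here, so which transcripts each probe set binds was not tested. The response of Tubb2b is uncertain for that reason.

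Tubb4b, a widely expressed beta tubulin that is also built into cilia, rose from a low signal. Its arrays read 4.52, 4.37 and 4.74 with NTBC and 6.19, 5.71 and 5.56 after withdrawal. No value fell below the lower quartile of its array, and the groups were 0.82 apart. The log2 change was 1.28 (SE 0.19), a 2.42-fold difference (limma adjusted p = 0.00255), and it passed in each of 14 alternatives. The filter on dim probe sets removed this gene.

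Tubb6, a beta tubulin found in many tissues, rose 1.96-fold. The continuous arrays gave 6.56, 6.43 and 7.02 and the withdrawal arrays 7.5, 7.76 and 7.67. Every withdrawal value was above every continuous one, by at least 0.48 (log2 change 0.97, SE 0.18, limma adjusted p = 0.00801), and the highest adjusted p over 15 alternatives was 0.0411. Tubb5, a beta tubulin of most cells, rose least of those called. Its signals were 9.01, 8.56 and 8.66 with NTBC and 9.40, 9.36 and 9.27 after withdrawal, a 1.52-fold difference (log2 change 0.60, SE 0.16, limma adjusted p = 0.0440). The gap between groups was 0.26. Adjusted p was 0.139 and 0.119 with continuous replicate 2 or 3 left out and 0.179, 0.137 and 0.0773 with withdrawal replicate 1, 2 or 3 left out, so the call rested on all of these arrays. Quantile normalization (0.062) and the mean of its 2 probe sets (0.0851) ended it too. On the second Tubb5 probe set the change was 0.39 (95% interval -0.03 to 0.82, adjusted p = 0.246).

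**Figure D2:**
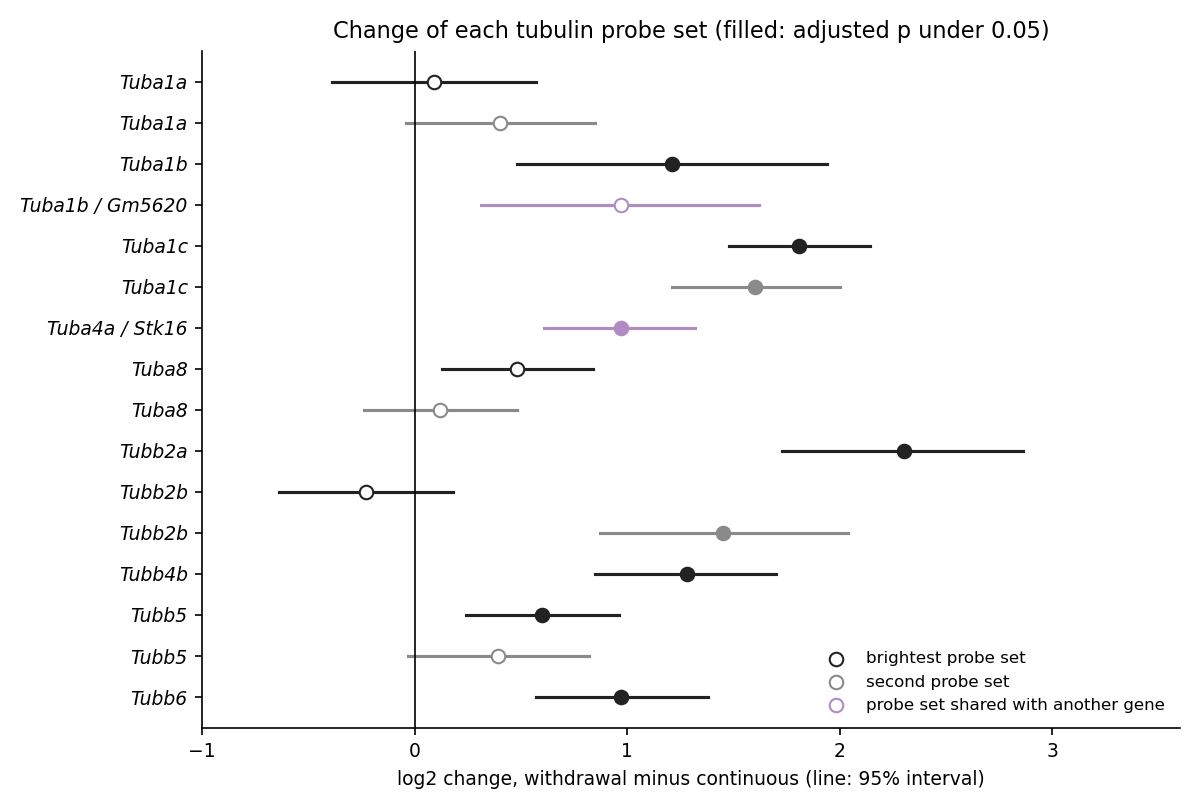
Log2 change, withdrawal minus continuous (x axis), of every probe set that lists a measured tubulin gene or Tuba4a (y axis), with its 95% interval from limma, n = 3 arrays a group. Filled points have an adjusted p under 0.05. Both probe sets of Tuba1c rise (1.81 and 1.60), while those of Tubb2b lie apart (-0.23 and 1.45).

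Within-array ratios of close relatives were compared next. With the brighter probe set of each gene, the ratios of the groups did not overlap in 4 of 5 pairs. How often the ratios of other gene pairs separate was not counted. Among 34472 single probe sets the groups separated for 4784 upward and 4715 downward. The alpha pairs share genes with each other, so they are not separate readings. The ratio of 2 genes on the same array does not depend on the scaling of that array, and the pairs were compared by an exact two-sided permutation test, whose smallest possible p with 3 arrays against 3 is 0.1. Tubb2a over Tubb2b went from a log2 ratio of 0.96 ± 0.76 to 3.48 ± 0.21, a shift of 2.53 with separated groups (exact permutation p = 0.1, adjusted p = 0.125 over the 5 pairs). It was 0.84 with the second Tubb2b probe set, where the ratios of the groups overlapped. With the mean of both probe sets it was 1.69. These 2 settings were chosen after seeing the data. Tuba1a over Tuba1c shifted by -1.72, from -1.74 ± 0.34 to -3.46 ± 0.32, also with separated groups and the smallest p. The shift was -1.12 for Tuba1a over Tuba1b and 0.68 for Tubb4b over Tubb5, each with separated groups and the same exact permutation p of 0.1. For Tuba1b over Tuba1c the shift was -0.60 and the groups overlapped (exact permutation p = 0.4, adjusted p = 0.4); without continuous replicate 1 it was -0.13 and without continuous replicate 3 it was -1.0. With this permutation test none of the pairs could pass 0.05.

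**Figure D3:**
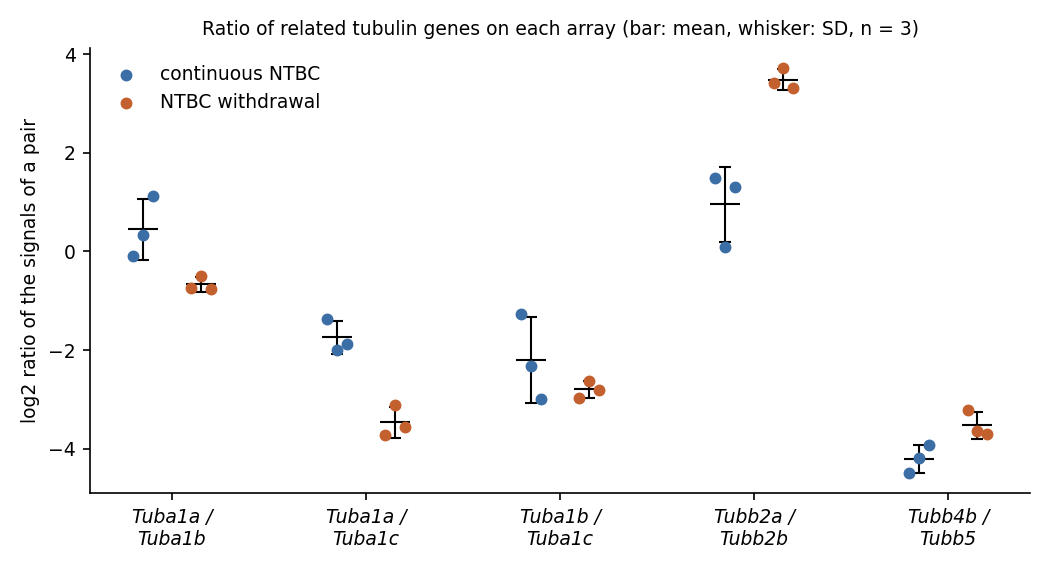
Log2 ratio of the signals of 2 related tubulin genes on the same array (y axis) for 5 pairs (x axis), on 3 continuous (blue) and 3 withdrawal (orange) arrays, with mean (bar) and SD (whisker). With the brighter Tubb2b probe set, shown here, the Tubb2a to Tubb2b ratio moves most, from 0.96 to 3.48. With the second Tubb2b probe set its shift is 0.84, and it does not move most. The Tuba1b to Tuba1c ratio overlaps between groups.

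Tubulins outside the group did not pass. Those measured were Tubal3, Tubb1, Tubb3, Tubb4a, Tubd1, Tube1, Tubg1 and Tubg2. Of these 8, limma called 0 higher and 0 lower, against 6.21% and 3.20% of all probe sets. With 8 genes a count of 0 lies near those shares. At an unadjusted p under 0.05, 0 were higher and 2 lower, against 4267 and 3851 of all 34472 probe sets. The median change of the 8 was 0.03. Tubb3, the neuronal beta tubulin, had continuous signals of 4.51, 5.47 and 5.13 and withdrawal signals of 5.11, 4.44 and 5.02. Its log2 change was -0.18 (95% interval -0.75 to 0.39, limma adjusted p = 0.719), and it turned to 0.04 without continuous replicate 2 and 0.03 without withdrawal replicate 2. Tuba3a and Tuba3b share their probe sets with each other and were not read. The gamma-tubulin complex, which nucleates microtubules, had 0 of 10 measured genes called in either direction by limma, also near the shares of all probe sets. At an unadjusted p under 0.05 it had 1 higher and 2 lower, and its median change was 0.17. In that complex 1 gene was called higher with array weights and with continuous replicate 1 or withdrawal replicate 3 left out. There 1 gene was called lower with quantile normalization and with the trend and robust options, and 1 in each direction with the replicate block, without dim probe sets and with probe sets of 1 symbol. In the list of other tubulins 1 gene was called lower with array weights, with probe sets of 1 symbol and with withdrawal replicate 3 left out.

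Chaperones that fold tubulin were higher in part. Nascent tubulin and actin are handed by prefoldin to the CCT chaperonin. Of 13 measured genes of both complexes 6 passed upward and 0 downward, against 6.21% and 3.20% of all probe sets. Their median change was 0.54. Cct3, a chaperonin subunit, went from 8.37, 8.24 and 8.07 to 9.17, 9.07 and 8.90 (1.77-fold, limma adjusted p = 0.00810). The subunits Cct7 (1.74-fold, adjusted p = 0.00955) and Cct2 (1.57-fold, adjusted p = 0.0157) showed separated groups as well. Without withdrawal replicate 1 none of the 13 passed (adjusted p = 0.0565 for Cct3, 0.0644 for Cct7 and 0.0978 for Cct2). The count was 3 with continuous replicate 2 or 3 or withdrawal replicate 2 or 3 left out and 3 with quantile normalization.

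Of 7 measured tubulin folding cofactors and the autoregulation factor, Tbcel, a protein related to cofactor E that can destabilise tubulin, passed. It rose from 8.59, 8.35 and 8.18 to 9.5, 9.52 and 9.33 (2.11-fold, limma adjusted p = 0.00223), and the call held under every alternative tried. The median of these 7 genes was 0.27, and 6.21% of all probe sets were called higher. Ttc5 itself had withdrawal signals of 5.96, 5.80 and 5.78 against 5.68, 5.58 and 5.23, and its log2 change of 0.35 (95% interval -0.01 to 0.71) did not pass (limma adjusted p = 0.230).

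Some proteins that bind microtubules were called higher. Of 23 measured microtubule-binding and plus-end genes, 6 passed upward and 0 downward, against 6.21% and 3.20% of all probe sets. Their median change was 0.10. Clasp1, which stabilises growing plus ends, rose 2.84-fold, from 7.00, 6.65 and 6.68 to 8.34, 8.48 and 8.03 (limma adjusted p = 0.000521). Mapre1 and Mapre3, which encode the end-binding proteins EB1 and EB3, rose 1.79-fold (adjusted p = 0.00844) and 1.71-fold (adjusted p = 0.0112). Without withdrawal replicate 1 only Clasp1 passed, with adjusted p = 0.0523 for Mapre1 and 0.0502 for Mapre3. The Mapre3 call was also lost without withdrawal replicate 2 (0.0504), where 3 genes passed.

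Enzymes that modify or cut tubulin came next. Of 16 measured modifying enzymes 3 rose and 0 fell, with a median of 0.06, where 6.21% of all probe sets were called higher. Ttll1, the catalytic part of a tubulin polyglutamylase, rose 2.27-fold (limma adjusted p = 0.00493) and passed in all 15 alternatives. Ttll7, another polyglutamylase, rose 1.61-fold (adjusted p = 0.0360), and Ttll12, a relative of tubulin tyrosine ligase, rose 1.59-fold (adjusted p = 0.0310). Both were lost without continuous replicate 2 or any 1 withdrawal array, Ttll7 also without continuous replicate 1 and Ttll12 without continuous replicate 3, with highest adjusted p of 0.130 and 0.137. Of 9 measured stathmins and severing enzymes 2 rose and 0 fell, with a median of 0.12. Stmn1, which sequesters free tubulin dimers, rose 1.85-fold (adjusted p = 0.0104), and Spast, which severs microtubules, 1.84-fold (adjusted p = 0.0265). Without withdrawal replicate 1 neither passed (0.0641 and 0.116), and Spast was also lost without continuous replicate 2 (0.0905), continuous replicate 3 (0.0816) or withdrawal replicate 2 (0.102).

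Interphase microtubule motors had 4 of 19 measured genes called higher and 1 lower, against 6.21% and 3.20% of all probe sets. Their median was 0.34. The dynein heavy chain Dync1h1 (1.62-fold, limma adjusted p = 0.0118), the dynein light chain Dynlrb1 (1.49-fold, 0.0384), the kinesin-2 motor Kif3a (1.48-fold, 0.0307) and the dynactin subunit Dctn3 (1.42-fold, 0.0441) rose. Dctn2, the dynactin subunit dynamitin, fell by 0.62 on the log2 scale (adjusted p = 0.0232), a call lost with median centring (0.0948), without continuous replicate 2 (0.0576) and without any 1 withdrawal array (highest 0.0942). The higher count was 0 without withdrawal replicate 1 or withdrawal replicate 2, and 1 with continuous replicate 2 or 3 or withdrawal replicate 3 left out.

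Other cytoskeletal genes gave 5 of 17 called higher and 0 lower, against 6.21% and 3.20% of all probe sets. Their median was 0.23. Keratins of the hepatocyte rose: Krt8 1.75-fold (limma adjusted p = 0.00882) and Krt18, its partner, 1.64-fold (adjusted p = 0.0385). Krt23, a keratin induced in stressed liver, rose 2.66-fold (adjusted p = 0.0100), Pfn1, profilin, 1.52-fold (adjusted p = 0.0295) and Lmna, lamin A, 1.47-fold (adjusted p = 0.0421). The Lmna call was lost with any 1 array left out (adjusted p of 0.0607 to 0.164), with quantile normalization (0.0994) and with the replicate block (0.0518), and the Krt18 call with the mean of its probe sets (0.0584) and with any 1 array other than continuous replicate 1 left out (0.0522 to 0.175). Without withdrawal replicate 1 Krt23 alone passed, and the count was 2 with continuous replicate 2 or 3 or withdrawal replicate 2 or 3 left out. Actb, beta actin, had signals of 10.68, 10.81 and 10.76 with NTBC and 11.21, 11.23 and 11.30 after withdrawal. Its groups were 0.40 apart, yet its log2 change of 0.50 (SE 0.14) did not pass (limma adjusted p = 0.05001, just above the threshold), and it passed in 8 of 15 alternatives. 

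**Figure D4:**
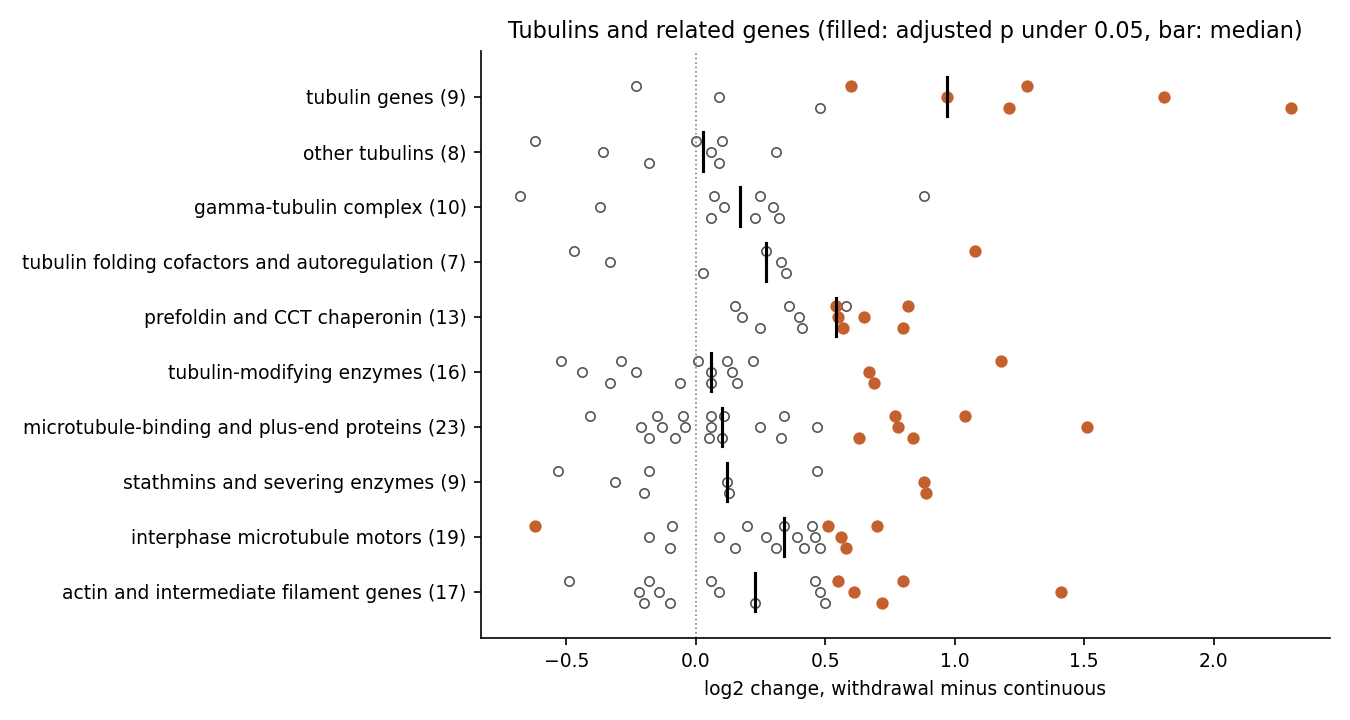
Log2 change, withdrawal minus continuous (x axis), of each measured gene of the tubulin group and of 9 lists of related genes (y axis, number measured in brackets), with list medians as bars and genes with adjusted p under 0.05 filled. The tubulin median is 0.97, that of prefoldin and the CCT chaperonin 0.54 and that of other tubulins 0.03.

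Markers of the cells in the tissue were read on the same arrays, where 6.21% of all probe sets were called higher and 3.20% lower. At an unadjusted p under 0.05, 4267 of the 34472 probe sets were higher and 3851 lower. Dividing cells, which need tubulin for the spindle, had 0 of 9 measured markers called in either direction by limma (1 higher and 1 lower at an unadjusted p under 0.05), with summed linear signals of 310.6 to 390.3 with NTBC and 309.0 to 328.4 after withdrawal and Bub1 below the lower quartile on all 6 arrays. Sinusoidal endothelial markers had 2 of 8 called higher and 0 lower (Clec4g, 1.75-fold, and Lyve1, 2.09-fold) and 5 higher at an unadjusted p under 0.05, and their summed signal was 1624 to 1887 with NTBC and 2386 to 2486 after withdrawal. Hepatocyte markers, which define the tissue, had 2 of 7 called lower (Cps1 and Cyp2e1) and 3 lower at an unadjusted p under 0.05. Their summed signals were 67830 to 71250 with NTBC and 56610 to 59100 after withdrawal. The 5 not called had log2 changes of -0.77 (Serpina1a), -0.23 (Apoa1), -0.07 (Apob), -0.05 (Alb) and 0.1 (Ttr). The list thus differed in the size of change, and Ttr alone had a change above 0. Cholangiocyte markers had 0 of 6 called (284.4 to 317.3 against 318.1 to 340.7), with Epcam below the lower quartile on all 6 arrays. Stellate cell and fibroblast markers had 0 of 9 called (1372 to 1728 against 1562 to 1909) and Kupffer cell and macrophage markers 0 of 9 (1088 to 1315 against 1035 to 1440). Unadjusted p was under 0.05 for 1, 2 and 1 of these cholangiocyte, stellate and macrophage markers, all higher. Neutrophil markers had 1 of 6 called lower, Retnlg, and 2 lower at an unadjusted p under 0.05. Retnlg and S100a8, another neutrophil marker, lay below the lower quartile on all 6 arrays, as did Klrb1c of T and NK cells. Markers of T and NK cells, B cells, pancreatic acinar cells, adipocytes and motile cilia gave 0 calls among 6, 4, 3, 4 and 4 measured, with 0, 1, 0, 0 and 1 at an unadjusted p under 0.05, each lower. Whether the changes of some endothelial and hepatocyte markers have a part in the tubulin changes was not tested.

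Genes whose pattern was most like the mean log2 signal of the 9 tubulin genes were sought among 1587 named probe sets with an SD of at least 0.5 over the 6 arrays. That mean was 6.33, 6.03 and 6.14 on continuous arrays and 7.19, 7.15 and 7.00 on withdrawal arrays. The 5 closest by Pearson correlation were Ddc (r = 0.9997), aromatic amino acid decarboxylase, Crtap (0.9997), a collagen hydroxylation factor, Tnfaip1 (0.9995), Stip1 (0.9993), an HSP70 and HSP90 cochaperone, and Mdm2 (0.9985), the p53 ubiquitin ligase. Their folds were 3.37, 2.97, 2.01, 2.32 and 3.03. With 6 arrays in 2 groups the correlation mostly reflects the group difference, and 120 of the 1587 reached 0.99.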

How the data were processed

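Liver RNA (100 ng a sample) from 6 samples was amplified with a whole-transcript kit and hybridised to Affymetrix arrays, per the labels' protocols. The authors deposited normalized intensities on a linear scale, 1 for each probe set on each array. They were made with Transcriptome Analysis Console, per the submitters' processing notes; version, background correction and normalization are not given in the sources used here. Intensities were turned to log2 and not normalized again. Array medians were 5.21 to 5.44 and lower quartiles 4.03 to 4.26. Detection flags were not used here, so a low signal does not show absence. The number of arrays limits the precision.

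The whole table of 34472 probe sets entered 1 limma fit (version 3.58.1, R 4.3.3, lmFit and eBayes, 4 residual and 10.2 total degrees of freedom), withdrawal minus continuous, two-sided, Benjamini-Hochberg adjusted over the whole table, threshold 0.05. The fit was also run on simulated data with independent noise for each probe set, and the outcome is not given here. Genes were named from the platform annotation, and probe sets with several symbols named no gene. Of 133 genes on 9 related lists, 122 were measured. From each list up to 5 called genes in a direction, otherwise the 3 with the smallest p, were named, with Ttc5, Tubb3 and Actb always, and all tubulin members. Marker genes were named where called or below the lower quartile on every array, and the hepatocyte markers that were not called were named too. These choices were made after the values were seen. The members and lists were chosen with earlier results of these data known.

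Alternatives were quantile normalization, median centring, leaving out dim probe sets, the replicate block, array weights, probe sets with 1 symbol, trend and robust options of eBayes, leaving out each array in turn, low signals raised to the array's lower quartile, a 2-fold threshold and averaging the probe sets of a gene.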

Additional observations from a re-analysis of the deposited data

How the results depend on the processing

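The count of tubulin genes called higher was 6 and lay between 4 and 7 under the alternatives, and 0 were called lower in each of them. It was 4 to 6 with 1 array left out, 4 with quantile normalization and at the 2-fold threshold, 5 with low signals raised, with probe sets of a gene averaged and without dim probe sets (6 genes left to test), and 7 with median centring and array weights. The Tubb2a, Tuba1c and Tubb4b calls held in each alternative that tested them. The Tubb6 call held in each except the 2-fold threshold, which its 1.96-fold rise missed. The count of all probe sets called was 3241, with 5588 under array weights, 1178 at the 2-fold threshold and 1454 to 4210 with 1 array left out (2078 without continuous replicate 2, 1795 without withdrawal replicate 2 and 1454 without withdrawal replicate 1). Deviations of same-numbered arrays from their group means correlated at 0.160, -0.125 and 0.217, so the numbers were not taken as pairs. The replicate block gave 6 tubulin genes and 3298 probe sets, and 3 of 6 arrays correlated best with their own number. It ended the calls of Pfdn2 (adjusted p = 0.0542), Cct5 (0.0509), Cct8 (0.0591), Camsap2 (0.0579), Dctn3 (0.067) and Lmna (0.0518), which took the prefoldin and CCT chaperonin count from 6 to 3, the plus-end count from 6 to 5, the motor count from 4 to 3 and the actin and intermediate filament count from 5 to 4. Changes of sign were seen for Tubb2b with the mean of its probe sets (0.61), for Tuba1a without continuous replicate 2 (-0.03) or withdrawal replicate 2 (-0.12), within a range of -0.12 to 0.24 over left-out arrays, and for Tubb3 in the same cases (0.04 and 0.03, range -0.44 to 0.04). None of these was called in either fit, and the cause was not tested. Signals near the lower quartile of their array limit the precision of Tuba1a, Tuba1b and Tubb4b.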
